A study of Mus musculus with 6 samples.

Results

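The genes described here encode the apical proteins through which sodium enters the cells of successive nephron segments, together with a potassium channel that works beside them and part of the sodium pump on the opposite, basolateral side. The 9 genes were chosen by name, and all 9 were found among the 24346 gene symbols of the table. In order along the nephron they are Slc9a3, Slc12a1, Kcnj1, Slc12a3, Scnn1a, Scnn1b and Scnn1g, followed by the pump genes Atp1b1 and Fxyd2. Kidney RNA of C57BL/6 mice was sequenced in 6 libraries, 3 from kidneys labelled with the surgery IVCC and 3 with Sham. The study is about renal congestion and acute kidney injury, and the comparison shows where the sodium transporter transcripts stood after IVCC relative to Sham. What IVCC stands for is not spelled out, and no age, sex or interval after surgery is given in the labels. Nothing there ties a replicate to its own animal either, so the p-values reflect the spread between libraries, which may be technical.

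Filtered sodium is taken back from the tubular fluid in stages. The proximal tubule recovers most of it in exchange for protons and with other solutes, the thick ascending limb recovers it with potassium and chloride, the distal convoluted tubule with chloride, and the connecting tubule and collecting duct through a channel that aldosterone controls. In every segment the sodium pump then moves the ion out across the basolateral membrane, which keeps the gradient that drives entry.

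Levels are in FPKM, which divide the fragments of a gene by transcript length and by the mapped fragments of its library, so that levels can be set beside each other between genes of a library. Between libraries they also carry differences in the FPKM sum, which ran from 719896 to 927860 in IVCC and from 775720 to 1118258 in Sham. FPKM hold no read totals, but the spacing of very low values, where 1 read makes a step, gave nominal sizes of 8230000 to 9190000 reads in the IVCC libraries and 6140000 to 7200000 in the Sham libraries. On that footing the least covered value of the 9 genes, Slc9a3 in Sham replicate 3, rests on about 77 reads, and the most covered, Fxyd2 in IVCC replicate 3, on about 32640. Libraries also differed with transcript length, Sham replicate 3 and IVCC replicate 2 lying at the opposite ends. Relative to each gene's mean over the 6 libraries, the median of 1224 genes with transcripts under 1000 bp lay at -0.14, -0.31 and 0.16 on the log2 scale in IVCC replicates 1 to 3 and at 0.02, -0.13 and 0.40 in Sham replicates 1 to 3. The 2641 genes with transcripts over 4000 bp ran the other way, at 0.06, 0.19 and -0.09 in IVCC and at -0.02, 0.06 and -0.20 in Sham. In a bulk kidney sample, fewer cells of a segment and less RNA per cell cannot be told apart.

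None of the 9 transcripts was called different between IVCC and Sham. Differences were tested on log2(FPKM + 1) with limma over the 12090 genes whose mean reached 1 FPKM, a filter that all 9 passed, with Benjamini-Hochberg adjustment over all of them and a threshold of 0.05. The test called 0 of all genes, or 0%, with a smallest adjusted p of 0.790, and 431 genes, or 3.56%, had an unadjusted p under 0.05, none of them among the 9. The fitted value was higher in IVCC for 8 of the 9 and lower for 1, where 48.4% of all genes tested were higher. After scaling to TPM all 9 were higher, and 79.0% of all genes were too. The median log2 fold change of the 9 was 0.10, beside -0.01 for all genes tested. It was 0.02 without Sham replicate 2, 0.23 without Sham replicate 1 and 0.18 without IVCC replicate 3. The IVCC and Sham values overlapped for every one of the 9, whereas IVCC lay wholly above Sham for 4.09% of all genes and wholly below for 4.22%.

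**Figure D1:**
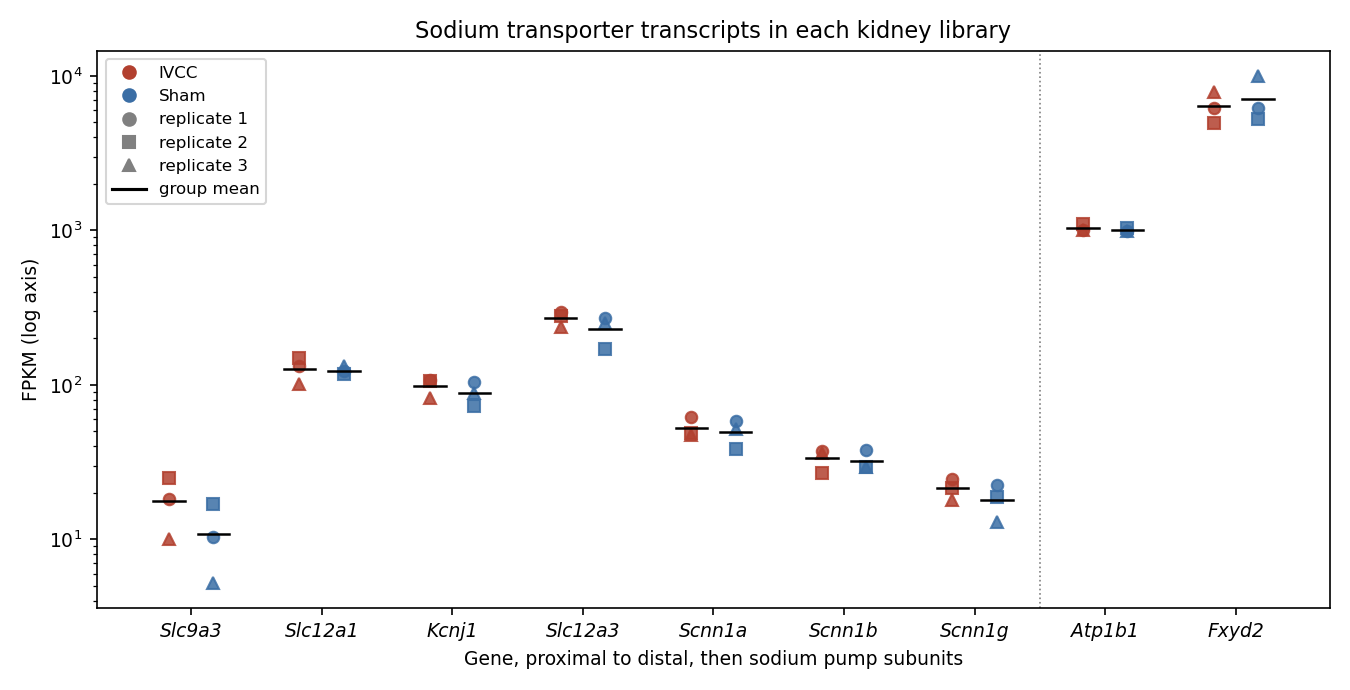
FPKM of the 9 genes on a log axis, in order along the nephron and then the pump subunits, with 1 point per library (IVCC left, Sham right; marker shape gives the replicate number) and a bar for each group's mean of 3 libraries. The genes span from 5.25 FPKM for Slc9a3 in Sham replicate 3 to 9976 FPKM for Fxyd2 in the same library, and the IVCC and Sham points overlap for every gene.

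The levels were ordered in the same way in nearly every library. Averaged over the 6 libraries, Fxyd2 came first at 6741 ± 1888 FPKM (SD, n = 6), then Atp1b1 at 1020 ± 45.4 FPKM, Slc12a3 at 250.6 ± 44.7 FPKM and Slc12a1 at 125.5 ± 15.8 FPKM. Kcnj1 followed at 93.4 ± 14.4 FPKM, Scnn1a at 50.96 ± 8.40 FPKM, Scnn1b at 32.8 ± 4.82 FPKM, Scnn1g at 19.7 ± 4.13 FPKM and Slc9a3 at 14.3 ± 7.13 FPKM. Each gene lay above the next in all 6 libraries, except that Scnn1g lay above Slc9a3 in 5 of 6. The ranges over libraries of Scnn1g and Slc9a3 overlapped, with Slc9a3 the higher in IVCC replicate 2, and these neighbours did not differ beyond their spread. Those of Slc12a1 and Kcnj1 overlapped as well, although within each library Kcnj1 was at 0.621 to 0.857 of Slc12a1. Of all genes tested, 0.0248% had a higher mean than Fxyd2 and 0.935% a higher mean than Atp1b1.

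Upstream sequences are shown for genes of the proximal and distal nephron and of the pump, so that their base composition and common promoter motifs can be compared. RefSeq promoters (GRCm38.p6) were found for 7 of the 9 genes, all but Scnn1a and Fxyd2. The 250 bases before the annotated start are printed for the proximal exchanger gene Slc9a3, the distal cotransporter gene Slc12a3, the channel subunit gene Scnn1g and the pump gene Atp1b1, whose level varied least of the 9. Capitals mark every match on either strand to the E-box CACGTG, the GC box GGGCGG, the CCAAT box CCAAT, the TATA box TATAAA and the steroid receptor hexamer AGAACA.
Slc9a3, chr13:74121163-74121412, plus strand: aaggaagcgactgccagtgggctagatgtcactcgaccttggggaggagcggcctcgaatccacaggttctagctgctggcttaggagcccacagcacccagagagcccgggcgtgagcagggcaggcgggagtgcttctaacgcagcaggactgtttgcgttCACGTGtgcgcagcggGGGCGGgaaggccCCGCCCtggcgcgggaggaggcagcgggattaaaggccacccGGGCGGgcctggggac
Slc12a3, chr8:94328958-94329207, plus strand: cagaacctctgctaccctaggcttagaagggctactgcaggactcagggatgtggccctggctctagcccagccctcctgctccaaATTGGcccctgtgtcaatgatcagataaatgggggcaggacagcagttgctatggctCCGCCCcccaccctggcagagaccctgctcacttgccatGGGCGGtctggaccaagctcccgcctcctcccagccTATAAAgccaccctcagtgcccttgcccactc
Scnn1g, chr7:121734229-121734478, plus strand: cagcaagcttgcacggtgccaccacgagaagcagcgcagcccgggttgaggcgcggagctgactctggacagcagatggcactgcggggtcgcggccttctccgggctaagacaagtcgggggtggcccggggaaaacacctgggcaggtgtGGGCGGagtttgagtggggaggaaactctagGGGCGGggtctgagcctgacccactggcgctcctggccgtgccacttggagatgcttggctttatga
Atp1b1, chr1:164458356-164458605, minus strand: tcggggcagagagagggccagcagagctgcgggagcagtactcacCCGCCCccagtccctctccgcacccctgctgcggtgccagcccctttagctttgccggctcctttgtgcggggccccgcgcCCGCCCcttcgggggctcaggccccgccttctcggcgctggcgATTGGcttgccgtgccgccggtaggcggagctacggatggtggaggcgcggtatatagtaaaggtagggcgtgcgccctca
The E-box occurs in the Slc9a3 window only, among the 7, and in 6.02% of all 32851 promoters. GC boxes occur in 5 of the 7, those of Slc9a3, Slc12a3, Scnn1b, Scnn1g and Atp1b1, and in 32.7% of all promoters. The CCAAT box occurs in 4 of 7 and in 33.8% of all, and the TATA box in the Slc12a3 window alone of the 7, 32 to 27 bases before the start, and in 12.4% of all. The hexamer AGAACA occurs in the Kcnj1 window alone of the 7, at 2 places, and in 16.1% of all. The Kcnj1 window, chr9:32393735-32393984 on the plus strand, lies within the gene's span of 32372493 to 32399197, not before its first base. The annotated start of a promoter is thus not always the first base of the gene span given here. The Slc12a1 window, chr2:125152350-125152599, runs past that gene's first base at 125152505. The Slc12a3 window ends at 94329207, past 94329201, and the Slc9a3 window ends at 74121412, short of 74121457. The windows are 67.6% G and C for Slc9a3, 61.2% for Slc12a3, 65.2% for Scnn1g and 70.4% for Atp1b1, against 39.6% for Slc12a1 and 44.8% for Kcnj1.

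Slc9a3 encodes the main sodium-hydrogen exchanger of the brush border in the proximal tubule, which also works in the thick ascending limb. The gene lies on chromosome 13 from 74121457 to 74169442 on the plus strand (GRCm38, the assembly that mm10 names) and has 16 to 17 exons in its annotated transcripts. It had 18.3, 25.1 and 10.1 FPKM in IVCC replicates 1 to 3, against 10.3, 17.02 and 5.25 FPKM in Sham replicates 1 to 3. The highest library was IVCC replicate 2 and the lowest Sham replicate 3, and IVCC replicate 3 fell below Sham replicates 1 and 2. Its log2 fold change of 0.71 was the largest of the 9 and exceeded that of all but 0.703% of the genes tested, yet with a standard error of 0.43 its 95% interval ran from -0.28 to 1.70 (limma adjusted p = 0.924). Depending on the library left out the fold was 0.31 (without Sham replicate 3) to 1.08 (without Sham replicate 2).

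The spread of Slc9a3 was the widest of the 9, with the highest library at 4.77 times the lowest. Its 6 libraries fell in the same order as the median of the transcripts over 4000 bp, IVCC replicates 2 and 1 first, then Sham replicates 2 and 1, then IVCC replicate 3 and Sham replicate 3. Subtracting a fit on transcript length and GC content from each library left its fold at 0.70 and its range over libraries at 2.11 on the log2 scale, against 2.06 before. That fit used 2589 bp, the median of its annotated basic transcripts. The gene with the most similar deviations, by the root mean square difference over the 6 libraries, was AA474331 at 0.11, followed by Trip11 at 0.14, a Golgi protein gene whose median transcript has 9873 bp. The comparison covered 11387 genes and only 6 libraries, and it is given as a description.

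**Figure D2:**
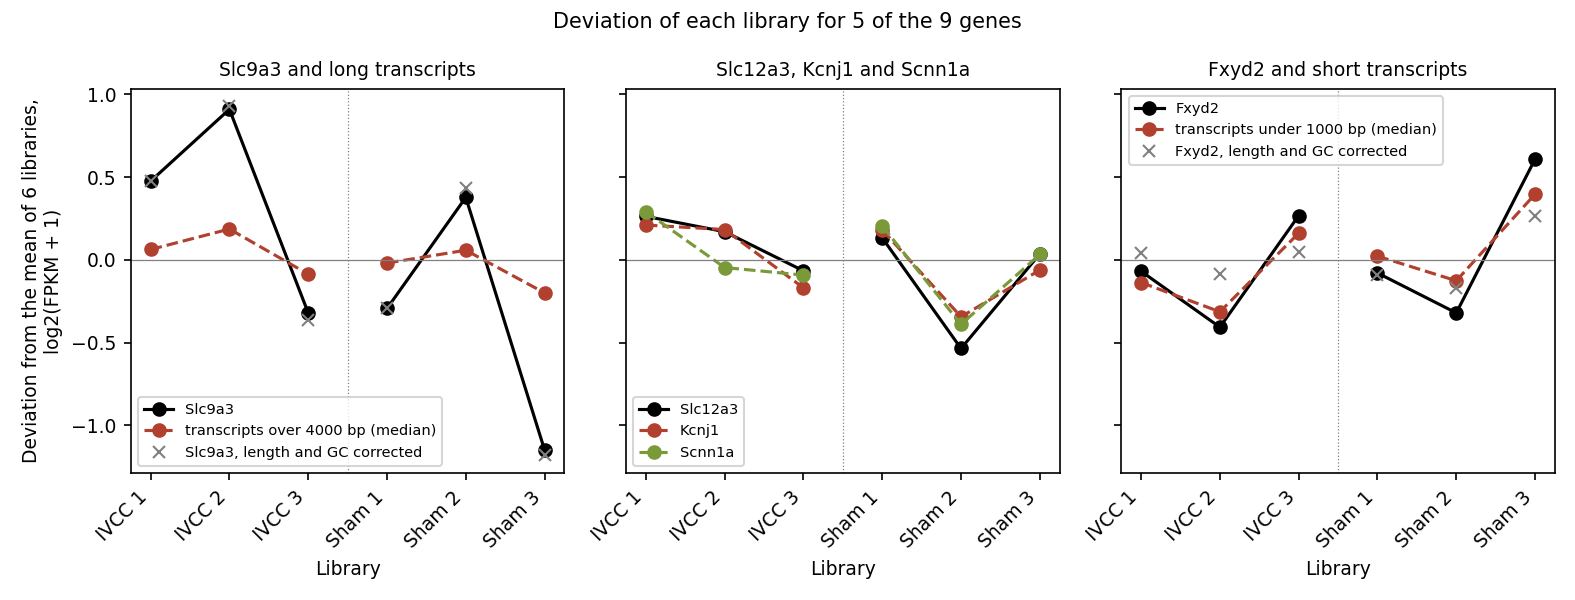
Deviation of each library from the gene's mean over 6 libraries, in log2(FPKM + 1), with IVCC replicates 1 to 3 left of Sham replicates 1 to 3. Left: Slc9a3 with the median of the 2641 genes with transcripts over 4000 bp, both highest in IVCC replicate 2 and lowest in Sham replicate 3. Middle: Slc12a3, Kcnj1 and Scnn1a, all lowest in Sham replicate 2. Right: Fxyd2 with the median of the 1224 genes with transcripts under 1000 bp, both highest in Sham replicate 3. Crosses show Slc9a3 and Fxyd2 after the correction for transcript length and GC content.

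Slc12a1 encodes the sodium-potassium-chloride cotransporter of the thick ascending limb, the target of loop diuretics, and lies on chromosome 2 from 125152505 to 125230002 on the plus strand, with 27 exons and the antisense gene Gm14002 across it on the minus strand. It had 131.5, 148.4 and 101.8 FPKM in IVCC kidneys, against 122.6, 117.0 and 131.7 FPKM in Sham kidneys. The IVCC libraries held both the highest and the lowest value, with the 3 Sham values between them. The log2 fold change was 0.02 with a 95% interval from -0.34 to 0.39 (limma adjusted p = 0.981). Its sign turned without IVCC replicate 1 (-0.01), IVCC replicate 2 (-0.09) or Sham replicate 2 (-0.02), and after the correction for length and GC content (-0.07).

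Kcnj1 encodes the potassium channel that returns potassium to the lumen of the thick ascending limb, without which the cotransporter stalls, and that secretes potassium further down. The gene has 2 exons per transcript on chromosome 9, from 32372493 to 32399197 on the plus strand. It had 107.2, 105.1 and 82.1 FPKM in IVCC kidneys, against 105.0, 72.6 and 88.6 FPKM in Sham kidneys, with Sham replicate 2 lowest. The log2 fold change was 0.15 with a 95% interval from -0.25 to 0.55 (limma adjusted p = 0.924). It was 0.015 without Sham replicate 2, 0.082 without IVCC replicate 1, 0.096 without IVCC replicate 2, 0.27 without IVCC replicate 3 and 0.28 without Sham replicate 1.

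Slc12a3 encodes the sodium-chloride cotransporter of the distal convoluted tubule, which thiazides block. It lies on chromosome 8 from 94329201 to 94366214 on the plus strand, with 24 to 25 exons. It had 296.3, 277.8 and 235.7 FPKM in IVCC kidneys, against 270.7, 169.9 and 253.0 FPKM in Sham kidneys. IVCC replicates 1 and 2 were the highest of the 6 libraries and Sham replicate 2 was the lowest by a wide margin, whereas IVCC replicate 3 lay below 2 of the 3 Sham values. The log2 fold change was 0.24 with a 95% interval from -0.23 to 0.71 (limma adjusted p = 0.924), and 0.04 without Sham replicate 2. Kcnj1 and Slc12a3 ranked the 6 libraries identically.

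The 3 subunits of the epithelial sodium channel, ENaC, form the amiloride-sensitive entry path of the connecting tubule and the collecting duct. Scnn1a encodes the alpha subunit, needed for a working channel, and lies on chromosome 6 from 125320659 to 125344943 on the plus strand. It had 61.8, 48.7 and 47.2 FPKM in IVCC kidneys, against 58.2, 38.2 and 51.5 FPKM in Sham kidneys, with replicate 1 highest in both groups and Sham replicate 2 lowest of all. The log2 fold change was 0.10 (95% interval -0.32 to 0.53, limma adjusted p = 0.933), and its sign turned without IVCC replicate 1 (-0.02) or Sham replicate 2 (-0.07).

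Scnn1b and Scnn1g, which encode the beta and gamma subunits, are neighbours on the plus strand of chromosome 7, from 121865038 to 121918514 and from 121734479 to 121768475, with 96562 bases between them and 13 exons each. Scnn1b had 37.4, 26.7 and 36.0 FPKM in IVCC kidneys, against 37.8, 29.6 and 29.2 FPKM in Sham kidneys, and its lowest library was IVCC replicate 2. Scnn1g had 24.7, 21.6 and 17.9 FPKM in IVCC kidneys, against 22.3, 18.9 and 12.9 FPKM in Sham kidneys, and its lowest library was Sham replicate 3. Despite their adjacency the 2 genes therefore did not rank the libraries alike, although both had high values in the libraries numbered 1. The log2 fold change of Scnn1b was 0.04 (95% interval -0.34 to 0.43, limma adjusted p = 0.965), with the sign turning without IVCC replicate 1 (-0.04), IVCC replicate 3 (-0.02), Sham replicate 2 (-0.01) or Sham replicate 3 (-0.02). That of Scnn1g was 0.26 (95% interval -0.23 to 0.74, limma adjusted p = 0.924), and 0.05 without Sham replicate 3. The gene Cog7 overlaps Scnn1b on the opposite strand. The kit marks strand, but whether the authors' counting used it is not given in the sources used here.

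Atp1b1 encodes the beta subunit that brings the sodium pump to the membrane, and Fxyd2 the gamma subunit that tunes its affinity for sodium in the kidney. Atp1b1 (chromosome 1, 164437109 to 164458355, minus strand, 6 exons) had 1003, 1106 and 1008 FPKM in IVCC kidneys, against 984.2, 1031 and 986.7 FPKM in Sham kidneys. It was the steadiest of the 9, the highest library being 1.12 times the lowest, and its log2 fold change was 0.05 (95% interval -0.30 to 0.41, limma adjusted p = 0.956). Nme7 overlaps its last bases on the opposite strand. Fxyd2 (chromosome 9, 45399669 to 45410278, plus strand) had 6236, 4934 and 7873 FPKM in IVCC kidneys, against 6192, 5237 and 9976 FPKM in Sham kidneys.

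Fxyd2 was the only 1 of the 9 with a lower fitted value in IVCC, with a log2 fold change of -0.14 (95% interval -0.94 to 0.66, limma adjusted p = 0.950). The sign turned without IVCC replicate 2 (0.03) or Sham replicate 3 (0.13). Its median annotated transcript has 650 bp, the shortest of the 9, and its highest libraries, Sham replicate 3 and IVCC replicate 3, and its lowest, IVCC replicate 2, were also those of the transcripts under 1000 bp. Correction for length and GC content narrowed its range over the 6 libraries to 0.44 on the log2 scale, against 1.02 before. Its fold after that correction was -8.0e-05, and the difference in Fxyd2 over Atp1b1 was -0.022, against -0.19 before. The genes with the most similar deviations were Cuta, at a root mean square difference of 0.02 with a median transcript of 701.5 bp, and the ribosomal protein gene Rps14, at 0.03 with one of 667 bp.

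**Figure D3:**
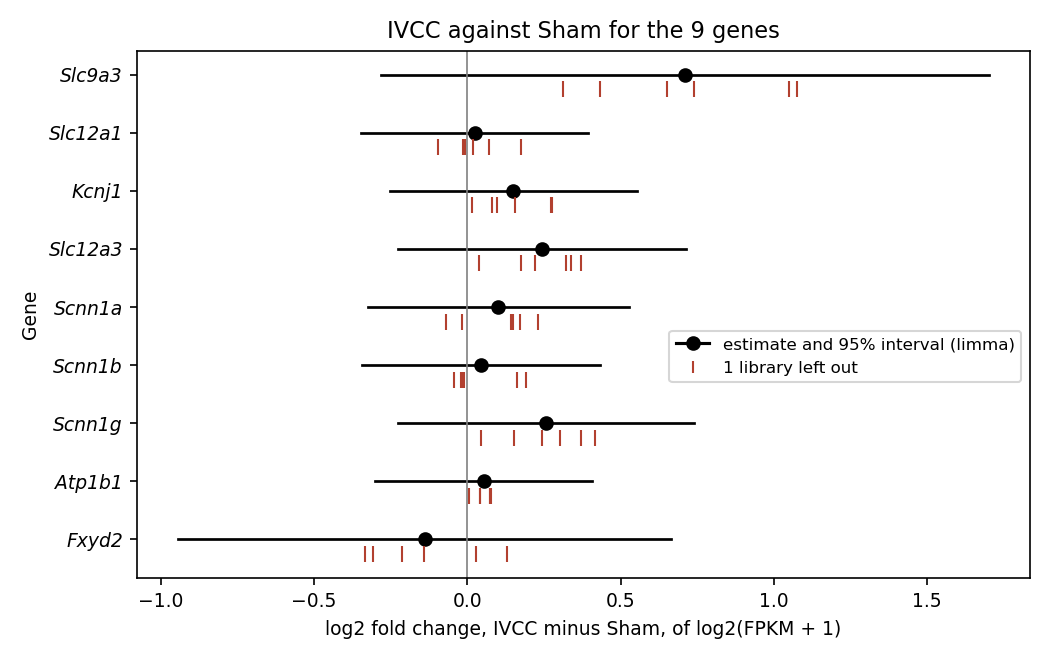
Log2 fold change, IVCC minus Sham, of log2(FPKM + 1) for the 9 genes, with the limma estimate (point), its 95% interval (line) and the estimates with 1 library left out (ticks). Each interval includes 0, and the widest belongs to Slc9a3, from -0.28 to 1.70.

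Ratios between the transcripts of one library do not depend on how libraries were scaled, and 5 of them were compared by an exact two-sided permutation test of 3 against 3 libraries, which cannot give a p below 0.1. Slc12a3 stood at 2.25, 1.87 and 2.32 times Slc12a1 in IVCC, against 2.21, 1.45 and 1.92 times in Sham. On the log2 scale that ratio averaged 1.10 ± 0.17 in IVCC and 0.87 ± 0.31 in Sham (SD, n = 3 each, exact permutation p = 0.4). Sham replicate 2 had the lowest ratio, and the groups overlapped.

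Slc9a3 stood at 0.139, 0.169 and 0.0993 of Slc12a1 in IVCC, against 0.0841, 0.145 and 0.0399 in Sham, with log2 means of -2.91 ± 0.39 in IVCC and -3.67 ± 0.94 in Sham (SD, n = 3 each, exact permutation p = 0.3). The mean of the 3 ENaC subunits over Slc12a3 was -3.02 ± 0.15 in IVCC and -2.91 ± 0.31 in Sham on the log2 scale (SD, n = 3 each, exact permutation p = 0.6), and the difference changed sign without Sham replicate 2 (0.04). Kcnj1 over Slc12a1 averaged -0.37 ± 0.11 in IVCC and -0.49 ± 0.24 in Sham (SD, n = 3 each, exact permutation p = 0.5). Fxyd2 stood at 4.46 to 7.81 times Atp1b1 in IVCC and at 5.08 to 10.1 times in Sham (exact permutation p = 0.6), with a difference that turned without IVCC replicate 2 (0.02) or Sham replicate 3 (0.09). The groups overlapped for each of the 5 ratios, and no p was adjusted since none passed unadjusted.

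**Figure D4:**
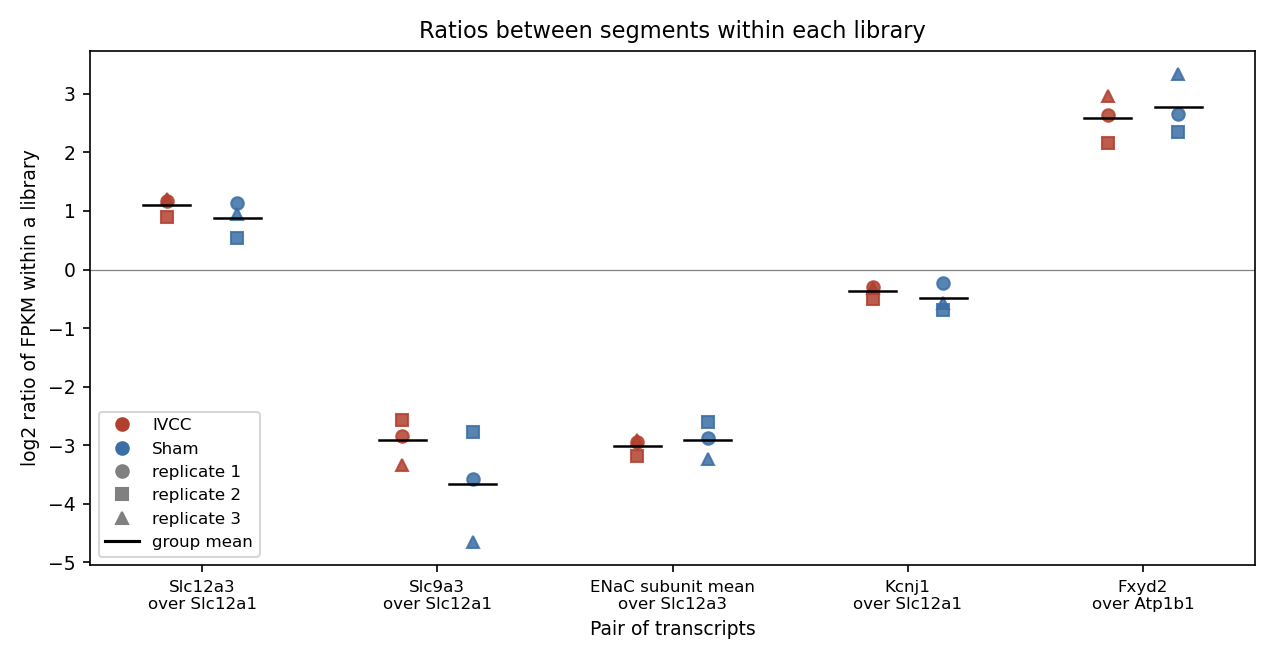
Log2 ratio of FPKM within a library for 5 pairs along the nephron, with IVCC left of Sham, 1 point per library (shape gives the replicate number) and a bar for the group mean. Points of the groups overlap in each pair, and Slc9a3 over Slc12a1 spreads most, with its lowest value of -4.65 in Sham replicate 3.

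Summed marker transcripts of the segments in which these genes work also overlapped between the groups, while the sums for some other kidney cells did not. The summed FPKM of 7 thick ascending limb markers ran from 1576 to 1786 in IVCC and from 1262 to 2339 in Sham. Those of 8 markers of the distal convoluted and connecting tubule ran from 365.3 to 423.7 in IVCC and from 323.2 to 473.7 in Sham. These sums follow their most abundant gene more than the rest of a list. Umod alone had 1086 to 1187 FPKM in IVCC kidneys and 841.9 to 1702 in Sham kidneys. Calb1 of the distal list had 223.9 to 287.7 FPKM in IVCC kidneys and 218.1 to 314.0 in Sham kidneys. For 7 principal cell markers the sums ran from 301.0 to 438.8 FPKM in IVCC kidneys and from 362.0 to 481.8 in Sham kidneys, and for 6 intercalated cell markers from 238.1 to 280.7 in IVCC and from 230.3 to 289.4 in Sham. Single markers did not always overlap: Ptger3, a prostaglandin receptor of the limb, had 9.46, 9.42 and 10.1 FPKM in IVCC kidneys, against 11.0, 14.1 and 15.7 FPKM in Sham kidneys (log2 fold change -0.44, 95% interval -0.77 to -0.11, limma adjusted p = 0.924). The water channel gene Aqp1 of the proximal list and the principal cell gene Elf5, which was below the filter, also lay wholly lower in IVCC. These 3 were named after their values were seen. Among tested markers, 1 of 7 of the limb and 1 of 10 of the proximal list lay wholly below Sham, beside 4.22% of all genes. None of the tested distal, principal and intercalated cell markers did. The fitted value was higher in IVCC for 1 of the 7 limb and 4 of the 10 proximal markers. Some of the markers, such as Cldn19 and Hsd11b2, also belong to the lists of sodium transport genes. Sham replicate 2, the lowest library for Slc12a3, Kcnj1 and Scnn1a, was also the lowest for the limb, distal and intercalated sums. The principal cell sum was instead lowest in IVCC replicate 2, at 301.0, against 362.0 in Sham replicate 2. The proximal sums were lowest in IVCC replicate 2 too. For the proximal tubule, 9 markers other than the very abundant Kap summed to between 6478 and 8067 FPKM in IVCC kidneys and between 6500 and 9365 FPKM in Sham kidneys. Of these 9, Miox alone had 3169 to 4991 FPKM in IVCC kidneys and 3399 to 5793 in Sham kidneys. With Kap all 10 summed to between 87303 and 129720 in IVCC and between 107010 and 195000 in Sham. Sums of 5 podocyte markers (51.4 to 92.4 FPKM in IVCC kidneys, 42.5 to 44.7 in Sham), 5 endothelial markers (85.3 to 94.9 in IVCC, 76.2 to 84.0 in Sham) and 6 fibroblast markers (37.1 to 42.8 in IVCC, 31.9 to 35.3 in Sham) did not overlap and were higher in IVCC. Of the tested markers, IVCC lay wholly above Sham for 3 of 5 podocyte, 2 of 5 endothelial and 4 of 5 fibroblast ones. The share over all genes was 4.09%. The most abundant fibroblast marker, Dcn, ran the other way, averaging 18.2 FPKM in IVCC kidneys and 20.0 in Sham. The most abundant endothelial marker, Emcn, overlapped, averaging 55.2 FPKM in IVCC kidneys and 52.9 in Sham. The sum of 6 macrophage markers ran from 76.0 to 93.3 FPKM in IVCC kidneys and from 67.7 to 76.7 FPKM in Sham kidneys. Of 5 adrenal markers, Cyp11a1, Cyp11b1 and Cyp11b2 were listed at 0 in all 6 libraries, and the list, mostly Star, summed to 0.627 to 1.198 FPKM in IVCC kidneys and 0.858 to 1.26 in Sham. Of 5 adipocyte markers, Adipoq, Plin1, Lep and Cfd were listed at 0 throughout, while Fabp4, which endothelial cells also make, ran from 74.7 to 138.8 FPKM in IVCC kidneys and from 85.9 to 140.3 in Sham. The urothelial markers summed to 0.637 to 1.29 FPKM in IVCC kidneys and 0.501 to 7.97 in Sham, with Sham replicate 3 highest. The part of these markers in the results for the 9 genes was not tested.

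The other genes of sodium transport were described in 6 lists, and no member of any list was called by limma. Among proximal sodium entry genes and partners of the exchanger, 12 of 15 tested had a higher fitted value in IVCC and 3 a lower one, with a median log2 fold change of 0.04. IVCC lay wholly above Sham for 3 of the 15, beside 4.09% of all genes. Slc6a19, the sodium-coupled carrier of neutral amino acids, had 125.6, 154.6 and 109.2 FPKM in IVCC kidneys, against 83.1, 98.3 and 88.2 FPKM in Sham kidneys, a log2 fold change of 0.51 (95% interval 0.16 to 0.87, limma adjusted p = 0.924). The basolateral sodium-bicarbonate cotransporter gene Slc4a4 averaged 141.9 ± 38.1 FPKM in IVCC kidneys and 110.3 ± 5.03 FPKM in Sham kidneys, and the phosphate transporter gene Slc34a3 44.3 ± 1.40 FPKM in IVCC kidneys and 36.2 ± 10.9 FPKM in Sham kidneys (SD, n = 3 each).

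Of the sodium-hydrogen exchangers other than Slc9a3, 5 of 8 passed the filter, 3 with a higher and 2 with a lower fitted value and a median log2 fold change of 0.09. Slc9a8, an exchanger of intracellular compartments and the apical membrane, had 42.4, 44.2 and 48.2 FPKM in IVCC kidneys, against 56.6, 73.1 and 65.9 FPKM in Sham kidneys. All 3 IVCC values lay below all 3 Sham values, as for 4.22% of genes, and the log2 fold change was -0.52 (95% interval -0.82 to -0.22, limma adjusted p = 0.924). Slc9a2 averaged 11.4 ± 1.76 FPKM in IVCC kidneys and 10.6 ± 1.11 FPKM in Sham kidneys (SD, n = 3 each).

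Partners of salt transport in the thick ascending limb, 11 of 12 tested, were split into 5 higher and 6 lower, with a median log2 fold change of -0.02. Casr, the calcium-sensing receptor, had 9.12, 9.69 and 3.86 FPKM in IVCC kidneys, against 4.88, 4.17 and 3.89 FPKM in Sham kidneys, so that IVCC replicate 3 was the lowest of all 6. Cldn19, a tight junction protein of the limb, averaged 10.6 ± 0.828 FPKM in IVCC kidneys and 12.6 ± 2.34 FPKM in Sham kidneys, and the basolateral potassium channel gene Kcnj10 18.3 ± 2.58 FPKM in IVCC kidneys and 15.6 ± 2.65 FPKM in Sham kidneys (SD, n = 3 each). Of the cation-chloride cotransporters other than Slc12a1 and Slc12a3, 5 of 7 were tested, 4 higher and 1 lower, with a median of 0.13. The potassium-chloride cotransporter genes Slc12a7 and Slc12a4 averaged 40.2 ± 2.85 and 3.77 ± 0.149 FPKM in IVCC kidneys, against 35.3 ± 1.77 and 3.40 ± 0.242 FPKM in Sham kidneys (SD, n = 3 each). Slc12a2, the cotransporter of secretory epithelia, averaged 9.11 ± 1.87 FPKM in IVCC kidneys and 7.92 ± 1.84 FPKM in Sham kidneys.

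Genes of the mineralocorticoid response and of sodium channel processing, 14 of 14 tested, had 10 higher and 4 lower fitted values and a median log2 fold change of 0.04. Furin, a protease that cleaves ENaC subunits, had 58.2, 60.7 and 59.8 FPKM in IVCC kidneys, against 50.3, 51.4 and 53.9 FPKM in Sham kidneys, with no overlap and a log2 fold change of 0.20 (95% interval -0.03 to 0.43, limma adjusted p = 0.924). The glucocorticoid receptor gene Nr3c1 averaged 14.7 ± 2.61 FPKM in IVCC kidneys and 12.3 ± 2.45 FPKM in Sham kidneys, and the steroid-responsive chaperone gene Fkbp5 35.4 ± 3.57 FPKM in IVCC kidneys and 31.8 ± 2.16 FPKM in Sham kidneys (SD, n = 3 each). Of the other sodium pump subunits and FXYD proteins 7 of 12 were tested, 3 higher and 4 lower, with a median of -0.09. Atp1b2 averaged 3.29 ± 0.431 FPKM in IVCC kidneys and 2.57 ± 0.557 FPKM in Sham kidneys, whereas Fxyd1 averaged 8.28 ± 1.99 FPKM in IVCC kidneys and 10.1 ± 2.42 FPKM in Sham kidneys and Fxyd6 2.55 ± 0.967 FPKM in IVCC kidneys and 3.11 ± 0.511 FPKM in Sham kidneys (SD, n = 3 each).

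For the remaining members the 2 most similar genes were named by the same measure of likeness. Kcnj1 was closest to Rell1 and Prom2, at root mean square differences of 0.03 and 0.04 over the 6 libraries, and Slc12a3 to Tmem52b and Tmem35, at 0.04 and 0.05. Slc12a1 was closest to Zdhhc13 (0.04) and Rasd2 (0.05), Scnn1a to Slc16a5 (0.05) and Rhobtb1 (0.06), and Scnn1b to Pcyox1l (0.06) and Zfp90 (0.07). Scnn1g was closest to St6gal1 (0.03) and Fam184a (0.05), and Atp1b1 to Zbtb21 and Vma21 (0.02 each). The own deviations of Atp1b1 had a root mean square of only 0.06, against 0.67 for Slc9a3, so each difference is to be read against that size.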

How the data were processed

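Per the labels' protocols, kidney RNA went into libraries of a stranded mRNA kit, read from 1 end over 75 bp. The authors deposited FPKM for 24346 symbols, with a column for each library. The submitters' processing notes name Cufflinks 2.2.1, SAMtools 0.1.19, TopHat2 2.0.13, Bowtie2 2.2.3 and the mm10 build but not what each did. Neither the annotation nor any scaling between libraries is given in the sources used here. FPKM sum to between 719896 and 1118258 per library.

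Depth was estimated from values below 0.15 FPKM of genes with 1 basic transcript of 1500 to 5000 bp in GENCODE M21, assuming fragments of 200 bp. Between 78.4% and 80.8% of these values were whole reads within a tolerance of 0.1, too few for a count test, so these depths are nominal.

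Groups and replicate numbers come from the titles. Log2(FPKM + 1) of genes averaging 1 FPKM or more was compared with limma 3.58.1 in R 4.3.3 (eBayes with a mean-variance trend, two-sided, Benjamini-Hochberg), so that folds understate changes of low genes. The fit was tested on simulated data with known changes. Over 10 runs it called on average 65.1% of the genes changed by 1 on the log2 scale and 95.3% of those changed by 2. On average 8.3 unchanged genes were called per run. The simulated noise was independent between genes, without the shared deviations by transcript length seen in these libraries. Its variances were drawn from the distribution that limma fitted over all genes. The shares called therefore do not describe a single gene of wide spread such as Slc9a3, with its standard error of 0.43. Ratios were compared by exact permutation in SciPy 1.17.1. The length and GC correction subtracted a natural-spline fit (4 degrees of freedom each) of gene deviations per library.

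The members, lists and tests were chosen with earlier results of these data known. Named are the 9 members and the 3 genes of smallest unadjusted p per transport list. Markers are named where needed for a range, at 0 or most abundant in a sum. Also named are the 2 genes most like each member, leaving out predicted and small RNA genes. Of the genes so taken, 1 is omitted. Same-numbered libraries were not treated as pairs. Other pseudocounts, filters, scalings, variance models, the replicate block and omitted libraries were tried as alternatives.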

Additional observations from a re-analysis of the deposited data

How the results depend on the processing

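No member was called under any of the 19 alternatives tried for the limma fit, where the smallest adjusted p was 0.0775, for Slc9a3 with the replicate block. Over all genes limma called 0 to 4 with 1 library left out, 4 without the libraries numbered 3, 1 with the length and GC correction and the replicate block, and 0 under the other alternatives. The median log2 fold change of the 9 members was 0.28 with TPM and 0.26 after quantile normalization, and TPM placed the median of all genes at 0.15. With 1 library left out the median ran from 0.015 to 0.23. The folds of Slc9a3, Kcnj1, Slc12a3, Scnn1g and Atp1b1 were positive under all 19. That of Slc12a1 ran from -0.094 to 0.18 with 1 library left out and was -0.068 after the correction, with or without the block. Likewise Scnn1a ran from -0.068 to 0.23, Scnn1b from -0.043 to 0.19 and Fxyd2 from -0.33 to 0.13. Scnn1b was at -0.079 without the libraries numbered 3, and Fxyd2 at 0.038 with TPM. The difference in ENaC subunits over Slc12a3 ran from -0.27 to 0.043 and that in Fxyd2 over Atp1b1 from -0.41 to 0.087 with 1 library left out. The other 3 ratios kept their direction under their 11 alternatives but not their size. With 1 library left out, Slc12a3 over Slc12a1 ran from 0.053 (without Sham replicate 2) to 0.36 (Sham replicate 1), Kcnj1 over Slc12a1 from 0.030 (Sham replicate 2) to 0.26 (Sham replicate 1), and Slc9a3 over Slc12a1 from 0.26 (Sham replicate 3) to 1.19 (Sham replicate 2). The causes were not tested. Deviations of same-numbered libraries from their group means correlated over genes at -0.11, 0.34 and 0.32 for numbers 1 to 3. Libraries numbered 2 and 3 correlated best with their own number, and those numbered 1 did not. IVCC replicate 2 with Sham replicate 3 gave -0.37, and IVCC replicate 3 with Sham replicate 2 gave -0.36. The replicate block gave 0 genes called and 2388 with an unadjusted p under 0.05, against 431 without it. The 9 folds are the same by construction, Slc9a3 at 0.71. Its standard error was 0.09 with the block, against 0.43 without it. Of the 9 members, 2 had an unadjusted limma p under 0.05 with the block, Slc9a3 (adjusted p = 0.0775) and Scnn1g (adjusted p = 0.196). Slc9a3 had the fewest nominal reads of the 9 in each library, 77 to 512. In IVCC replicate 2 the margin was small, 512 against 515 for Scnn1g and 521 for Scnn1b. Whether depth shaped its spread was not tested.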
